A study of Mus musculus with 6 samples.

Results

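A set of 679 YAP summits lay near gene ends in the second of the pair of YAP libraries labelled normal, with no summit of the first close by. A summit is the base of highest signal in a peak of chromatin immunoprecipitation sequencing. A summit of YAP normal 2 belonged to the set if it lay on chromosomes 1 to 19 or X, within 1 kb of the start or end coordinate of a protein-coding gene (mouse build GRCm38, mm10), and more than 200 bp from every summit of YAP normal 1. The set was thus selected on measured values, the presence of a summit in normal 2 and its absence in normal 1, so neither is a finding. These 679 were taken from the 2121 summits that YAP normal 2 has on those chromosomes, among 184671 in the 6 lists of the series. Only 11 further gene-end summits of normal 2 were left out because a normal 1 summit lay within 200 bp. Gene-end summits made up 30.4% and 24.4% of the lists of YAP tumor 1 and 2 and 32.5% of the normal 2 list (690 summits), but 1.08% of the normal 1 list (17 summits), so that almost any gene-end summit of normal 2 meets this condition.

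Cells for all libraries were epithelium of the gastric corpus, detached with EDTA and then fixed and frozen, with no culture step. Tumor mice had the genotype CluCreERT2;R26rtTA;HA-Yap+, a tamoxifen-inducible Cre at Clu, a reverse tetracycline transactivator at R26 and an inducible HA-tagged Yap, so induction starts in cells that express Clu. Normal mice were wild type (WT). The labels record the same regimen for all samples, tamoxifen at 2 mg on 5 days followed by 14 days on doxycycline food, and give no age. YAP was profiled in 2 tumor and 2 normal libraries, and H3K27ac in 1 tumor and 1 normal library. In bulk epithelium, fewer cells of a type and less signal per cell cannot be told apart. Whether replicate libraries stem from different animals is not stated.

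YAP is a transcriptional coactivator that does not bind DNA itself but is brought to it, mainly by the TEAD factors. The kinases of the Hippo pathway phosphorylate YAP and keep it out of the nucleus, and in the stomach YAP is known for its part in injury repair. H3K27ac is acetylation of histone H3 at lysine 27, which marks active promoters and enhancers. Promoters of widely expressed genes are often rich in CpG and carry sites for factors such as SP/KLF proteins (GC box), ETS proteins, NF-Y (CCAAT box) and NRF1.

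The names of the peaks go against the labels of 2 YAP libraries. Peak names of YAP normal 2 carry the words Clu_Yap, as do those of YAP tumor 2 and H3K27ac tumor, whereas those of YAP tumor 1 carry the word cre, as do those of YAP normal 1 and H3K27ac normal. Groups were taken from the labels, and each difference below between tumor and normal YAP libraries rests on labels that the peak names contradict for 1 library of each group. Scores are −log10 values that the authors deposited, of p or of q (which of them is not given), and were used only within a list, and a rank counts from 1 at the best score. Sequencing depth is unknown, and the lists differ in length, with 38227 and 53831 summits in YAP tumor 1 and 2, 1574 and 2121 in YAP normal 1 and 2, 66532 in H3K27ac tumor and 22386 in H3K27ac normal. Of 8 markers of gastric epithelium, 8 had gene-end H3K27ac (a summit no more than 1 kb from either end) in tumor and 7 in normal (not Gata6), as had 3 and 3 of 5 parietal, 3 and 4 of 4 chief and 3 and 4 of 6 pit and neck cell markers. Of 5 immune markers 1 and 1 had it (Spi1 in tumor, Ptprc in normal), and of 6 stromal markers 3 and 2, so the tumor count of stromal markers equals that of pit and neck markers. Because 1 library defines the set and its summits are not replicates, no test between groups was made. Shares carry Wilson 95% intervals, which cover counting error only, and medians carry 95% intervals over summits.

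Promoter sequences of 6 of these genes are shown because the YAP normal 2 summit falls inside the window, and because they hold between them the GC box, ETS, CCAAT, AP-1 and TEAD words whose frequency is given further on. Each is the RefSeq window from 250 bases before to 50 bases after a transcription start (GRCm38.p6), 5′ to 3′ on the gene's strand. Capitals mark the words searched, on either strand: the GC box GGGCGG, the ETS word CCGGAAG, the NF-Y word CCAAT, the AP-1 word TGANTCA, the TEAD word GGAATG and the CRE word TGACGTCA, beside longer words for NRF1 and YY1. The first 4 come from summits ranked 125, 166, 189 and 237 in normal 2, and the last 2 stand for a mitochondrial ribosomal protein gene and for a summit that also ranked high in the tumor lists.
Kmt2a: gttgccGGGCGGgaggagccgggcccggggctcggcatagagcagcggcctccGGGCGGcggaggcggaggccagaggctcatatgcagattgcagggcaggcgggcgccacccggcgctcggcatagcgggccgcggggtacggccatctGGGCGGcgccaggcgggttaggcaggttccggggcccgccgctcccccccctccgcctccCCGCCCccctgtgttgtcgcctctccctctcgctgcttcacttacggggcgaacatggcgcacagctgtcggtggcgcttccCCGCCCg
Denr: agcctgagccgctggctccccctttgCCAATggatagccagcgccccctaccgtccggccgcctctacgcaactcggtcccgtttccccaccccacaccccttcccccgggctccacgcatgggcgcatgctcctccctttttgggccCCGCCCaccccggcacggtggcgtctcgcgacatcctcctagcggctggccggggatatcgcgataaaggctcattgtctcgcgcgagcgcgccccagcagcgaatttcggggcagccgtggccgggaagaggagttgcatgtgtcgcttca
Stx16: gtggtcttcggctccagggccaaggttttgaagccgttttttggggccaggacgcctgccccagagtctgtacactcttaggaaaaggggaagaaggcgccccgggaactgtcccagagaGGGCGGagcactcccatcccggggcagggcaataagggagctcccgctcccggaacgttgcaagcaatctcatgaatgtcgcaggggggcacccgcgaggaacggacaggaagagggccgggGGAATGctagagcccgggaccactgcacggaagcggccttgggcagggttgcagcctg
Rpl37: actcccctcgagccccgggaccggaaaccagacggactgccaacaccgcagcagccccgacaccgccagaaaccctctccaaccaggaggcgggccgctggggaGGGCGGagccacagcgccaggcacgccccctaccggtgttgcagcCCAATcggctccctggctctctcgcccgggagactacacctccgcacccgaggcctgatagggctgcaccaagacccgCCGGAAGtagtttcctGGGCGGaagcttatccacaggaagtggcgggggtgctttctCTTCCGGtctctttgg
Mrps5: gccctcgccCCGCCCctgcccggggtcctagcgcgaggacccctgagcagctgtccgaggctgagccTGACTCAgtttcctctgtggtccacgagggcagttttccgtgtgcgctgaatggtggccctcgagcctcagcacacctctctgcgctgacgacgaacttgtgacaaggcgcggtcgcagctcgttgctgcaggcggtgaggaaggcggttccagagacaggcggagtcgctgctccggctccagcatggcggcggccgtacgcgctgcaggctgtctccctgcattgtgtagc
Stam: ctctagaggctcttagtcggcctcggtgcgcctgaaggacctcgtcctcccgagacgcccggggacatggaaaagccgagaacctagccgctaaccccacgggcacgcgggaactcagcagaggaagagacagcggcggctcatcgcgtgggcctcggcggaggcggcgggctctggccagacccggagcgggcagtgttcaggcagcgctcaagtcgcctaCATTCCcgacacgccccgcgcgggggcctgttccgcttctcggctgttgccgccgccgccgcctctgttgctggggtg

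The Kmt2a window (chr9:44881240-44881539, minus strand) holds 5 GC boxes, and the summit lies at base 61. The Denr window (chr5:123907025-123907324, plus strand) has the summit at base 202, with a GC box starting at base 149. In the Stx16 window (chr2:174076052-174076351, plus strand) the summit at base 241 lies beside a TEAD word that starts at base 243. The Rpl37 window (chr15:5116363-5116662, plus strand) holds 2 ETS words, at bases 228 and 285, and the summit at base 191. By nearest end this summit belongs to Card6, whose end is 9 bp away, and Rpl37 also has an end within 1 kb. The Mrps5 window (chr2:127587176-127587475, plus strand) has an AP-1 word at base 68 and the summit at base 176. The Stam window (chr2:14073850-14074149, plus strand) has a TEAD word at base 223 and the summit at base 197.

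Where the strand is known, almost all of the summits were nearer to the gene's start of transcription than to its far end. The strand is known for the nearest gene of 538 summits, and 518 of these (96.3%, 94.3 to 97.6) were nearest to the 5′ end. The same share was 93.5% of gene-end summits in YAP tumor 1, 90.8% in YAP tumor 2, 86.6% in H3K27ac tumor and 96.8% in H3K27ac normal. Of the 679, 524 lay within 1 kb of a start in the promoter table, at a median of 94 bp downstream of it (interval 67 to 127), and 65.1% (60.9 to 69.0) of these were downstream. Within 250 bp of such a start lay 51.4% of the 679 (47.6 to 55.1). This share was 59.6% and 56.5% of gene-end summits in YAP tumor 1 and 2, and 43.1% and 41.4% in H3K27ac tumor and normal. Gene-end summits of YAP tumor 1 and 2 were centred closer to the start, with medians of 7 and 19 bp downstream, while those of H3K27ac tumor and normal were 183 and 187 bp downstream. In median position the normal 2 summits lay between the tumor YAP summits and the H3K27ac summits.

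The summits lay near 661 genes by nearest end, and 782 of 21631 protein-coding genes (3.62%) had one within 1 kb of an end. The median length of the 661 genes was 31.2 kb, against 22.9 kb for genes with a gene-end H3K27ac normal summit and 17.3 kb for all protein-coding genes. For 123 summits (18.1%, 15.4 to 21.2) at least 2 genes had an end within 1 kb, close to the 16.5% of gene-end H3K27ac normal summits.

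Most of the set were weak peaks of their own list. The scores ran from 1.8 to 33.4 with a median of 5.06 (4.74 to 5.19), and 65 summits had a score of at least 10 while 336 had a score under 5. Weak scores were tied, with 316 different values among the 679, so ranks within a tie are arbitrary. Their median rank stood at 59.0% of the normal 2 list (55.6 to 62.5), against 57.6% for the 996 distal normal 2 summits, which lie over 1 kb from a gene end and over 200 bp from normal 1. Only 9 of the 212 summits in the best 10% of the normal 2 list belonged to the set (4.25%), while in each of the other 10% steps of the list their share was between 21.2% and 48.6%. The 11 gene-end summits left out near a normal 1 summit had a median score of 16.3.

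The best-scored summit of the set lay 127 bp outside Kmt2a, which encodes a histone H3 lysine 4 methyltransferase, at chr9:44881479, with a score of 33.4. A tumor 1 summit 7 bp away ranked 118 and a tumor 2 summit 57 bp away ranked 103, while the normal 2 rank was 125. The nearest H3K27ac summits were 256 bp away in tumor, at rank 9527, and 238 bp away in normal, at rank 14427. The Kmt2a site was thus far higher in both tumor YAP lists than in either H3K27ac list. The second, at rank 133, lay 19 bp outside Rad54l2, with ranks of 1842 in tumor 1 and 2284 in tumor 2. The third, at rank 137, lay 19 bp inside Wdfy1, an end it shares with Mrpl44, which encodes a mitochondrial ribosomal protein, and its tumor ranks were 1460 and 1216.

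Of the 10 best-scored summits, 9 had a partner within 200 bp in both tumor lists and the other in tumor 2. Denr, which encodes a factor in ribosome recycling and translation reinitiation, had tumor ranks of 181 in tumor 1 and 129 in tumor 2 and rank 166 in normal 2. Stx16, a syntaxin gene of the Golgi, had ranks 255 and 194 in the tumor lists and 189 in normal 2. Rab33b, a small GTPase gene, had ranks 274 and 195 in the tumor lists and 190 in normal 2. Gdf15, which encodes a stress-responsive cytokine of the TGF-beta superfamily, had ranks 328 and 427 in the tumor lists and 205 in normal 2. This summit lay 548 bp inside the gene from its 3′ end, 2154 bp downstream of the start. Uspl1 had a tumor 2 summit 105 bp away at rank 131, while the nearest tumor 1 summit was 239 bp away and so counted as no match. Otud7b and Dpy19l4 complete the 10, with tumor 1 ranks of 1665 and 389.

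Close partners in the tumor YAP lists were common. Of the 679 summits, 461 (67.9%, 64.3 to 71.3) had a tumor 1 summit within 200 bp and 457 (67.3%, 63.7 to 70.7) a tumor 2 summit. Both tumor lists had one for 405 (59.6%, 55.9 to 63.3), tumor 1 alone for 56, tumor 2 alone for 52 and neither for 166 (24.4%, 21.4 to 27.8). The shares for tumor 1 and tumor 2 were within each other's intervals. Tumor 2 carries the same peak-name words as normal 2 and tumor 1 does not. Both shares are over the same 679 summits and against lists of unlike length, so they cannot decide between labels and peak names. Among the distal normal 2 summits only 25.2% (22.6 to 28.0) had both, and among gene-end H3K27ac normal summits 40.1% had a tumor 1 summit, 42.5% a tumor 2 summit and 29.7% both. The comparison depends on the distance allowed. Within 500 bp the shares were 90.7% and 90.6% for the set in tumor 1 and tumor 2, against 85.5% and 88.3% for gene-end H3K27ac normal summits. Within 1 kb they were 99.0% and 98.8% for the set, against 94.3% and 97.0%. Matched summits were a median of 65 bp from the tumor 1 summit and 56 bp from the tumor 2 summit, and 3 were at the same base in tumor 2 and 0 in tumor 1.

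**Figure D1:**
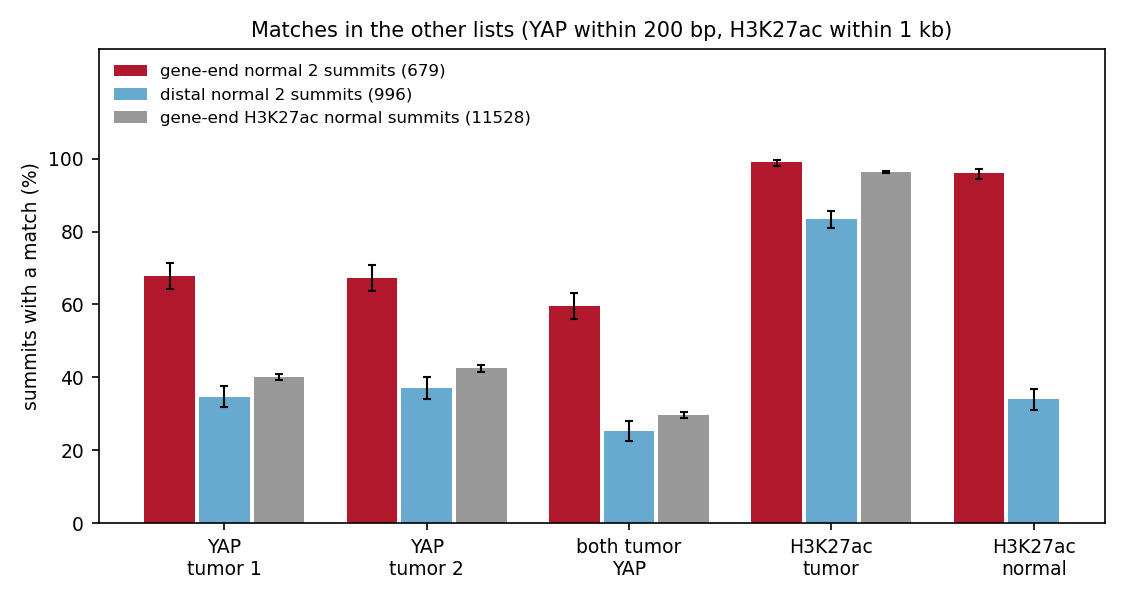
Bars give the percent of summits with a match in each other list (y axis), within 200 bp for YAP and 1 kb for H3K27ac, with Wilson 95% intervals. Gene-end normal 2 summits (red) matched both tumor YAP lists in 59.6%, distal normal 2 summits (blue) in 25.2% and gene-end H3K27ac normal summits (grey, not compared with their own list) in 29.7%. The difference between red and grey depends on the distance allowed. Within 500 bp, which is not drawn, it was 90.7% against 85.5% in tumor 1 and 90.6% against 88.3% in tumor 2.

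Counted by gene, the difference from other active genes was small. Of the 782 genes, 97.7% had a summit of both tumor YAP lists within 1 kb of an end, against 52.5% of all protein-coding genes but 93.7% of genes with a gene-end H3K27ac normal summit. The share with tumor 1 and with tumor 2 was 98.3% in each case, against 53.6% and 58.2% of all genes. H3K27ac tumor and normal summits were found at 98.1% and 95.9% of the 782 genes, against 65.2% and 48.6% of all genes.

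The partners stood high in the tumor lists. The matched tumor 1 summits had a median rank at 6.83% of the list (5.66 to 8.67), against 24.0% for all 11605 gene-end tumor 1 summits. In tumor 2 the median was 4.09% (3.15 to 4.96), against 20.5% for all 13109. For the 9591 gene-end tumor 1 summits with a tumor 2 summit within 200 bp, the medians were 20.6% in tumor 1 and 14.7% in tumor 2. The best 10% of the list held 271 of the 461 matches in tumor 1 (58.8%), where it held 23.2% of all gene-end summits, and 330 of the 457 in tumor 2 (72.2%), where it held 28.6%. Among the gene-end tumor 1 summits ranked 2121 or better, as many as normal 2 has, 206 of 1487 (13.9%, 12.2 to 15.7) had a summit of the set within 200 bp, and in tumor 2 this was 224 of 1508 (14.9%, 13.1 to 16.7). In the lower part of the lists, below rank 50%, it was 26 of 2910 (0.893%) in tumor 1 and 9 of 3241 (0.278%) in tumor 2. Across the 405 summits matched in both, the tumor 1 and tumor 2 scores had a Spearman rho of 0.878, while the normal 2 score had a rho of 0.403 with tumor 1 (461 summits) and 0.412 with tumor 2 (457 summits). Summits of 1 library share its depth and are not independent.

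**Figure D2:**
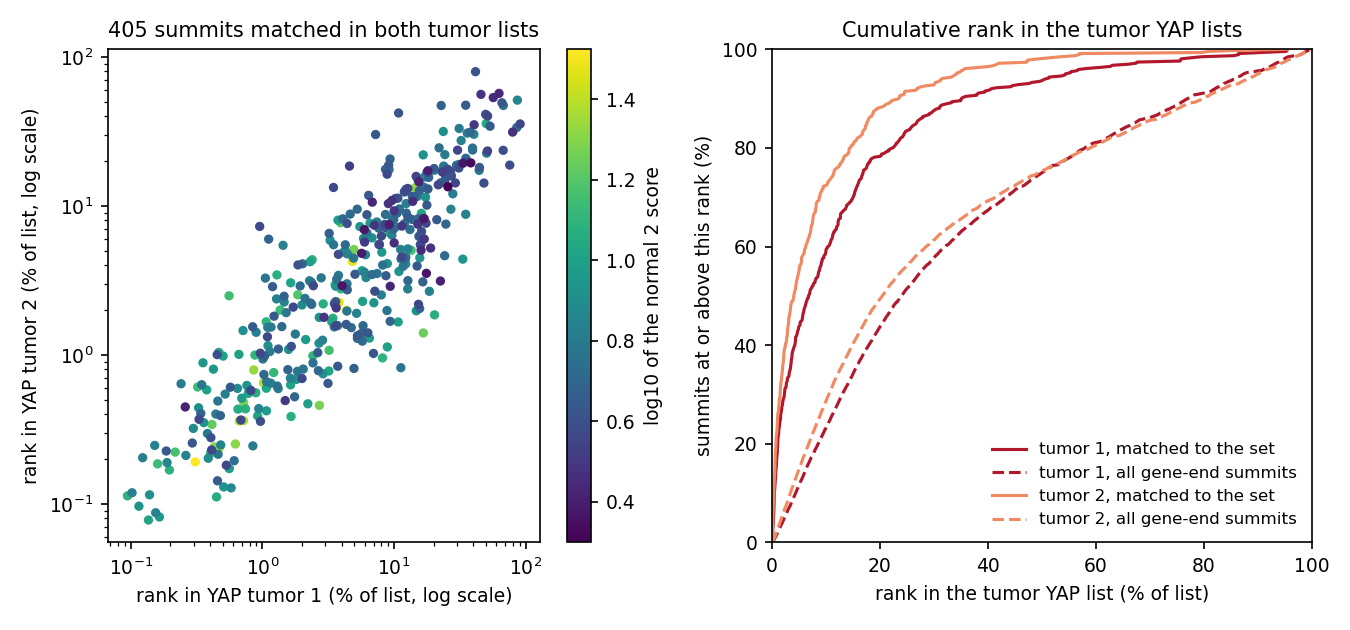
Left, rank in YAP tumor 1 (x) and tumor 2 (y) as percent of each list on log axes for the 405 summits matched in both, coloured by the log10 of the normal 2 score. Right, cumulative percent of summits (y) by rank (x) for matched summits (solid) and all gene-end summits (dashed), where the solid medians are 6.83% in tumor 1 and 4.09% in tumor 2 and the dashed ones 24.0% and 20.5%.

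Match and score went together within the set. Of the 170 summits with the best normal 2 scores (6.87 to 33.4), 84.1% matched both tumor lists, with median ranks of 2.41% in tumor 1 and 1.43% in tumor 2. Of the 169 with the lowest scores (1.8 to 3.82), 41.4% matched both, with median ranks of 15.1% and 7.52%. H3K27ac went the other way to a small extent. The median H3K27ac rank was 6.06% in tumor and 19.3% in normal for the best-scored 170, against 4.35% and 10.4% for the lowest-scored 169, where a smaller percent is a better rank. Across summits the normal 2 score had a rho of -0.08 with the H3K27ac tumor score (672 summits) and of -0.12 with the H3K27ac normal score (652 summits).

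The 10 summits with the best mean rank in the tumor YAP lists lay at genes of varied roles. Nup85, which encodes a nuclear pore subunit, had tumor ranks of 36 in tumor 1 and 61 in tumor 2 at chr11:115564333, where the normal 2 rank was 356. Ipo13, which encodes a nuclear import receptor, had tumor ranks of 44 and 52 and a normal 2 rank of 579. Its H3K27ac summits, 23 bp away in tumor and 22 bp away in normal, ranked 50 and 101. Rpl21, a gene of the large ribosomal subunit, had tumor ranks of 52 and 42 and a normal 2 rank of 448.

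Rad17, a DNA damage checkpoint gene whose end is shared with Taf9 and Ak6, had tumor ranks of 59 and 47 and a normal 2 rank of 745. Bud31, a splicing gene, had a tumor 1 summit 1 bp away at rank 53 and a tumor 2 summit 15 bp away at rank 62. Eftud2, which encodes a spliceosomal GTPase, had tumor ranks of 47 and 110. Hspa9, the gene of a mitochondrial chaperone, had tumor ranks of 39 and 64 but only rank 814 in normal 2. Zranb2 and Stam, genes of a splicing factor and an endosomal sorting adaptor, had tumor 1 ranks of 61 and 75. The remaining one of the 10, Gm40469, lies among near-identical predicted genes, where reads may be shared between copies. All 10 had tumor ranks of 110 or better in both lists, and normal 2 ranks between 323 and 839.

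At the other end, 10 summits matched both tumor lists with the worst mean ranks. They included Ddx43, Zar1 and Syce2, genes known for their roles in germ cells or meiosis, with mean tumor ranks of 63.1%, 60.6% and 50.9% of the lists. Each of these 3 had an H3K27ac tumor summit, at 19, 80 and 241 bp, and no H3K27ac normal summit within 1 kb. Plcg2, which encodes a phospholipase C of immune cell signalling, had a mean tumor rank of 59.6%, with H3K27ac summits 33 bp away in tumor and 11 bp away in normal. Prima1, Mib1, H2ac10, Gm51999, Gm10354 and LOC100504180 made up the rest, with mean ranks between 55.0% and 68.9%.

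The 166 summits with no tumor YAP summit within 200 bp had lower scores than the 405 matched in both lists. Their distance from tumor YAP summits is set by the split itself, and since gene-end tumor YAP summits are centred on the start, so in large part is their distance from the start. Their normal 2 scores had a median of 4.30 (3.90 to 4.50) and a highest value of 8.40, against a median of 6.02 (5.38 to 6.02) and a highest value of 33.4 for the 405. Within 1 kb of a start, 84.7% of 131 unmatched summits (77.6 to 89.9) lay downstream of it, against 54.2% of 310 matched ones (48.6 to 59.7). Their median distance from the start was 324 bp (289 to 372), against 107 bp (90 to 126). The nearest tumor summits were a median of 396 bp away in tumor 1 and 399 bp in tumor 2, and only 3 of the 679 had none within 1 kb in either list. The nearest H3K27ac summits were closer for the unmatched summits, at medians of 114 bp in tumor (90 to 135) and 110 bp in normal (83 to 125), against 149 bp (137 to 162) and 156 bp (139 to 178) for the matched ones. Gene-end H3K27ac summits are centred downstream of the start, at medians of 183 bp in tumor and 187 bp in normal. The downstream share and the distance from H3K27ac are therefore not independent of the split.

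**Figure D3:**
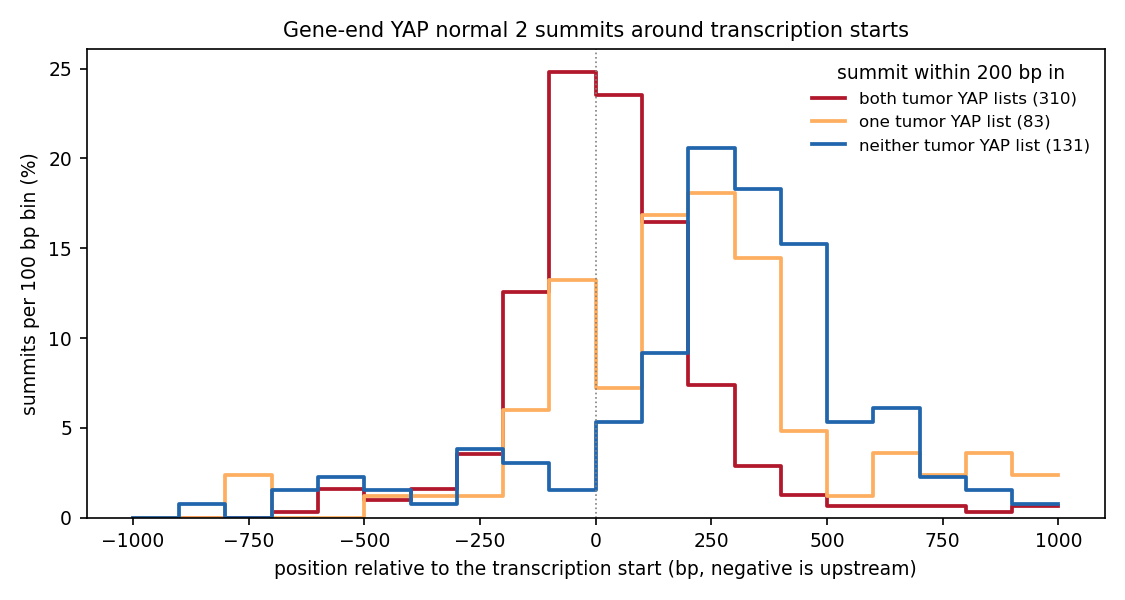
Position of the summits relative to the nearest transcription start (x, bp, negative is upstream) as percent of summits per 100 bp bin (y), for summits matched within 200 bp in both tumor YAP lists (310), in one (83) and in neither (131). Summits matched in both gather at the start, and those matched in neither lie mostly downstream of it, at a median distance of 324 bp.

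The best-scored unmatched summits included Yap1 itself. The Yap1 summit, at chr9:8004239, lay 357 bp downstream of the start with a score of 7.33 and rank 683, while the nearest tumor summits were 614 bp away in tumor 1 and 595 bp in tumor 2. H3K27ac summits were 67 bp away in tumor, at rank 4175, and 65 bp away in normal, at rank 4750. Cwc22, a splicing factor gene, had its summit 308 bp downstream of the start, 40 bp from the H3K27ac tumor summit of rank 91 and 30 bp from the H3K27ac normal summit of rank 60. The Zcchc14 summit lay 25 bp inside the gene's 5′ end but at -833 bp from the start in the promoter table, and 210 bp from a tumor 2 summit. Sap130, Cdk17, Mgat2, Rrs1 and Zbtb2 were also among the 10; their nearest tumor 1 summits were 346, 487, 361, 394 and 675 bp away, in that order. Duxf3 and Gm40364 belong to repeated gene families, where copies may share reads.

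At 18 genes the set held 2 summits, 297 to 1186 bp apart with a median of 506 bp. In 8 of them the better-ranked summit matched both tumor lists and the other matched neither. Setd1a, which encodes a histone H3 lysine 4 methyltransferase, had summits of rank 595 and 1813 in normal 2, and the better one was 20 bp from a tumor 1 summit and 24 bp from a tumor 2 summit. Nfat5, the gene of an osmotic stress factor, had summits of rank 309 and 1985, the better one 66 bp from tumor 1 and 1 bp from tumor 2, the other 19 bp from an H3K27ac tumor summit. Tbl1xr1, a corepressor subunit gene, had ranks 651 and 1852, and the better one had tumor partners at ranks 114 and 173. Zbtb2 and Nckap1 had the opposite order, with only the weaker summit matched in both tumor lists.

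H3K27ac surrounded nearly all of the summits in both tissues. A tumor H3K27ac summit lay within 1 kb of 672 (99.0%, 97.9 to 99.5) and a normal one of 652 (96.0%, 94.3 to 97.3). Both libraries had one for 648, tumor alone for 24, normal alone for 4 and neither for 3. Of the gene-end H3K27ac normal summits 96.3% had a tumor H3K27ac summit within 1 kb, and of the distal normal 2 summits 83.3% (80.9 to 85.5) had a tumor and 33.9% (31.1 to 36.9) a normal one. The tumor and normal H3K27ac lists have 1 library each, so differences between them have no replicate check. The matched H3K27ac summits were among the best of their lists, with a median rank at 4.69% in tumor (4.16 to 5.19) and 13.8% in normal (12.2 to 16.1), against 15.7% and 33.8% for all gene-end summits of these lists. The tumor list is 66532 long and the normal one 22386, and as plain ranks the medians were 3118 in tumor and 3087 in normal. Of the gene-end H3K27ac tumor summits in the best 10% of their list, 9.88% (9.11 to 10.7) had a summit of the set within 1 kb. The same share over all gene-end H3K27ac tumor summits was not counted, so 9.88% cannot be called high or low. The H3K27ac scores of tumor and normal had a Spearman rho of 0.847 over 648 summits.

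**Figure D4:**
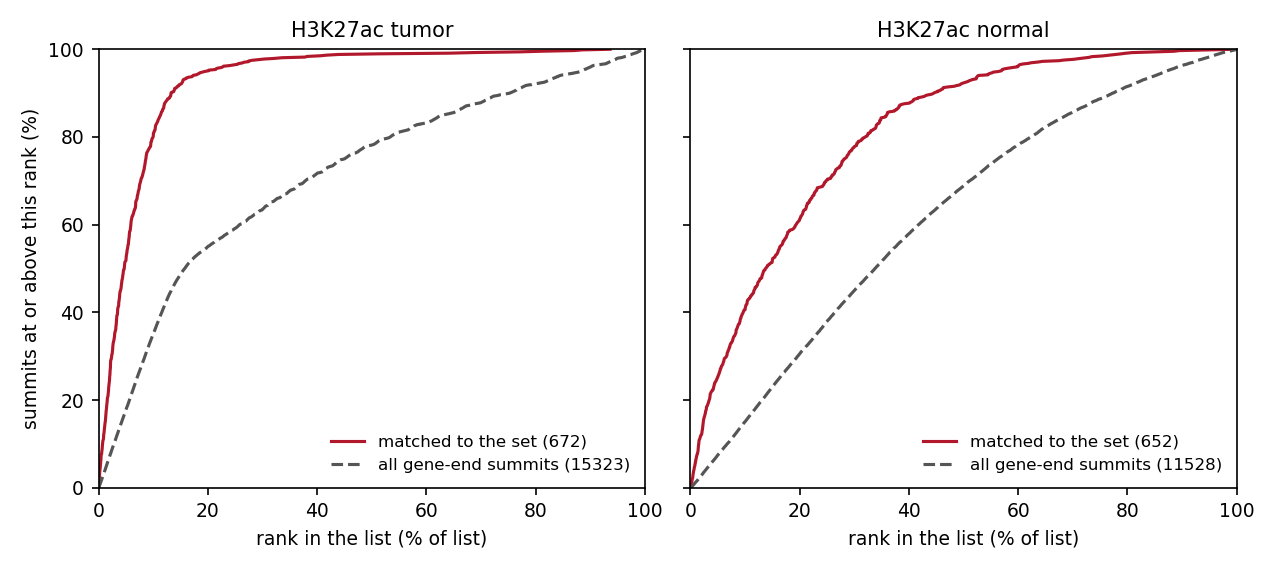
Cumulative percent of summits (y) by rank as percent of the list (x) in H3K27ac tumor (left) and H3K27ac normal (right), for summits matched to the set within 1 kb (red) and all gene-end summits of the list (dashed). The red medians are 4.69% in tumor and 13.8% in normal, and the dashed ones 15.7% and 33.8%.

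The 24 summits with H3K27ac in tumor alone were led by Cacng2, which encodes a regulatory protein of neuronal glutamate receptors. The Cacng2 summit had tumor YAP ranks of 178 in tumor 1 and 560 in tumor 2, an H3K27ac tumor summit 286 bp away at rank 17488, and the nearest H3K27ac normal summit 54749 bp away. Uros, Xkr7, Pxk and Stxbp5l followed, with H3K27ac tumor ranks of 25115, 22294, 5478 and 12936, at 37.7%, 33.5%, 8.23% and 19.4% of that list, where Cacng2 was at 26.3%. The nearest H3K27ac normal summit was 1652 bp away for Uros and 2125 bp for Pxk, not far beyond the 1 kb limit. It was 17153 bp away for Xkr7 and 154596 bp for Stxbp5l. The 4 summits with H3K27ac in normal alone lay at Slc30a4, 4931408C20Rik, Gm10354 and Gm21190. Slc30a4, a zinc transporter gene, had its summit 559 bp inside the gene from its 3′ end with no tumor YAP summit within 5 kb, and the other 3 are predicted or repeated genes.

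Gene groups were described by counts against the 3.62% of all genes with a summit of the set, and against the 7.14% of genes with a gene-end H3K27ac normal summit. Mitochondrial ribosomal protein genes had the highest share of the 23 groups, 12 of 78 (15.4%, 9.03 to 25), and 15.9% of those with gene-end H3K27ac in normal. Mrpl44 was described with Wdfy1 above. Mrpl13, whose end is shared with Mtbp, had tumor ranks of 923 and 531 and normal 2 rank 346. Mrps5, shared with Zfp661, had tumor ranks of 154 and 118 and normal 2 rank 361. Mrps31 had tumor ranks of 6170 and 4805.

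Most other families of the machinery for energy, translation, RNA and protein turnover had shares above 3.62%, but less so against 7.14%. Genes of the respiratory chain and ATP synthase had 9 of 96 (9.38%, 5.01 to 16.9). Ndufa4, which encodes a respiratory chain protein and shares its end with Phf14, had tumor ranks of 58 and 133 but rank 775 in normal 2. Ndufs7, a complex I gene, had tumor ranks of 233 and 105. Translation factors had 8 of 70 (11.4%, 5.91 to 21.0), among them Eif1ad, which shares its end with Banf1 and had tumor ranks of 1032 and 962, and Eif5a, whose summit matched neither tumor list. Genes of the proteasome and its assembly factors had 5 of 51 (9.80%, 4.26 to 21.0), among them Psmd12 with tumor ranks of 162 and 432, at 3 bp inside the gene. Psmg2, shared with Cep76, had tumor ranks of 144 and 314. Cytosolic ribosomal protein genes had 5 of 84 (5.95%, 2.57 to 13.2), an interval that holds 3.62%.

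Rpl37 (at a summit nearest to Card6), Rpl29 and Rps7 had tumor 1 ranks of 1891, 1068 and 1809. Heat shock and chaperonin genes had 7 of 85 (8.24%, 4.05 to 16.0), with 2 summits in the region that Hspd1 and Hspe1 share, of which the better had tumor ranks of 623 and 376. Splicing and RNA-binding factors had 11 of 155 (7.10%, 4.01 to 12.3), among them Sf3a3 with tumor ranks of 7757 and 1000 and Ddx31 with 125 and 238. Ubiquitin ligases, conjugating enzymes and ubiquitin-specific proteases, counted as 1 family, had 17 of 261 (6.51%, 4.11 to 10.2), among them Rnf44 with tumor ranks of 266 and 276. Transfer RNA synthetase genes had 3 of 34 (8.82%, 3.05 to 23), Fars2, Vars and Wars, of which Vars had tumor ranks of 92 and 345. Genes of RNA polymerases, mediator and general transcription factors had 7 of 105 (6.67%, 3.27 to 13.1), led by Med23 with tumor ranks of 158 and 184. The intervals of transfer RNA synthetases and of RNA polymerases, mediator and general factors also hold 3.62%. Among genes with gene-end H3K27ac in normal, 7.14% of all had a summit of the set. The share was 13.1% of translation factors (8 of 61), 11.1% of proteasome (5 of 45) and 11.0% of respiratory chain genes (9 of 82). It was 10.4% of heat shock (7 of 67), 10% of synthetase (3 of 30) and 9.55% of ubiquitin genes (17 of 178). It was near 7.14% for splicing factors (7.69%), RNA polymerases and mediator (7.53%) and cytosolic ribosomal proteins (6.58%). These shares carry no interval, and most rest on few genes, so differences from 7.14% are uncertain.

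**Figure D5:**
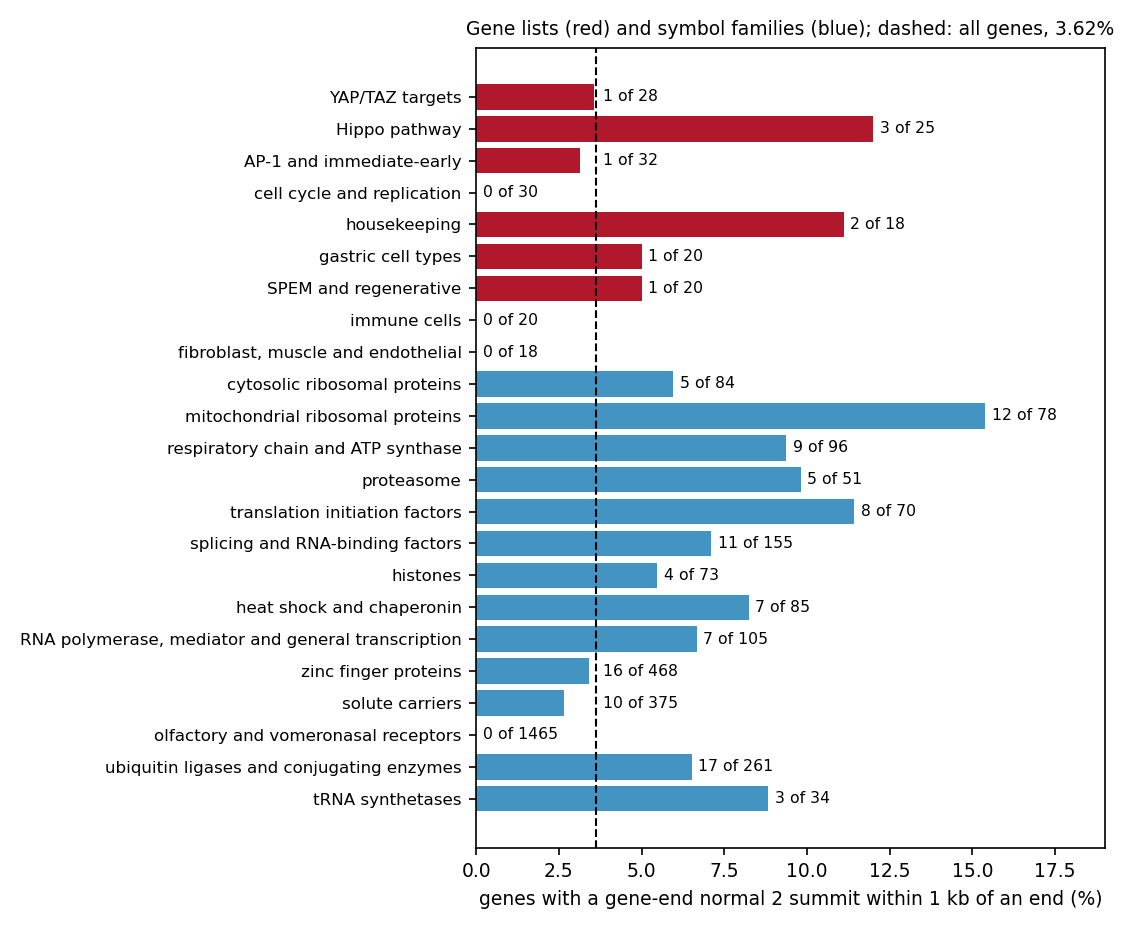
Percent of the genes of each list (red) or symbol family (blue) with a gene-end normal 2 summit within 1 kb of an end (x), with the counts beside the bars and all protein-coding genes as the dashed line at 3.62%. The longest bar is that of mitochondrial ribosomal proteins, at 12 of 78.

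Among the shorter lists, shares rest on few genes and their intervals are wide. Of 28 YAP/TAZ targets, whose expression serves to read out YAP activity, 1 had a summit (3.57%, 0.633 to 17.7), near the 3.62% of all genes, although 23 of the 28 had a summit of both tumor YAP lists within 1 kb of an end. That target was Frmd6, a scaffold gene of the Hippo pathway, whose summit had rank 1329 and lay 602 bp from the nearest tumor 1 and 694 bp from the nearest tumor 2 summit. Of 25 Hippo pathway genes 3 had one (12%, 4.17 to 30.0), and 15.8% of those with gene-end H3K27ac in normal had one. These were Yap1, Frmd6 and Vgll4, which encodes a cofactor that competes with YAP for TEAD. The Vgll4 summit, at rank 1617, had tumor partners 31 bp away at rank 3920 in tumor 1 and 36 bp away at rank 6045 in tumor 2. Of 32 AP-1 and immediate-early genes 1 had a summit (3.1%, 0.554 to 15.7), near the 3.62% of all genes. This was Klf4, with its summit 499 bp outside the gene on its 5′ side. It had no tumor YAP summit within 200 bp and H3K27ac summits of rank 4703 in tumor and 2044 in normal. For that list 28 of 32 genes had both tumor YAP lists at an end.

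None of the 30 cell cycle and replication genes had a summit (up to 11.4%), an interval that holds the 3.62% of all genes. Of the 30, 27 had both tumor lists at an end and 18 had gene-end H3K27ac in normal. Among 20 gastric cell type genes 1 had a summit of the set (5%, 0.888 to 23.6), an interval that holds 3.62%. This was Xbp1, a regulator of secretory cells, with its summit 465 bp downstream of the start. It lay 32 bp from a tumor 1 summit of rank 9590 and 289 bp from the nearest tumor 2 summit. Its H3K27ac summits ranked 661 in tumor and 149 in normal. Among 20 metaplasia (SPEM) and regenerative genes 1 had a summit of the set (5%, 0.888 to 23.6), again with 3.62% inside the interval. This was Anxa3, an annexin gene, with its summit 944 bp outside the gene. It lay 3 bp from a tumor 1 summit of rank 9042 and 2 bp from a tumor 2 summit of rank 17011. Of 18 housekeeping genes 2 had a summit of the set (11.1%, 3.10 to 32.8), an interval that holds 3.62%. These were Ppia, with tumor ranks of 2179 and 1978, and Tbp, with 3399 and 2209. Zinc finger genes had 16 of 468 (3.42%), solute carriers 10 of 375 (2.67%) and histones 4 of 73 (5.48%), where near-identical histone copies may share reads. No immune gene (of 20, up to 16.1%) and no fibroblast, muscle or endothelial gene (of 18, up to 17.6%) had one. Nor had any olfactory or vomeronasal receptor gene (of 1465, up to 0.262%). Few of these genes had gene-end H3K27ac in normal, namely 2 immune, 5 fibroblast, muscle or endothelial and 3 receptor genes.

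Promoter windows that held a summit of the set were rich in CpG and in ETS words. Of 21045 RefSeq promoter windows of protein-coding genes, 243 of 231 genes held a summit of the set. Their median GC content was 66.3%, against 63.7% in windows with a summit of both tumor YAP lists, 61.3% in windows of genes with gene-end H3K27ac in normal and 56.7% in all windows. The median number of CpG dinucleotides was 29, against 24, 21 and 13. The ETS word CCGGAAG, as in the Rpl37 window, was found in 86 of the 243 (35.4%, 29.6 to 41.6), against 24.7% with both tumor YAP lists, 19% with H3K27ac in normal and 11.7% of all. The GC box GGGCGG was found in 68.7% (62.6 to 74.2), against 71.9%, 64.4% and 46.7%. Summits further downstream than the windows reach were not covered, so these counts describe only part of the set. Of summits matched in both tumor YAP lists, 65.4% lay within 250 bp of a start, against 24.7% of those matched in neither. Windows of genes with H3K27ac in normal, and all windows, were not required to hold a summit.

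The TEAD word GGAATG was no more frequent than elsewhere, in 26 of 243 (10.7%, 7.41 to 15.2), against 10.6% with both tumor YAP lists, 12% with H3K27ac in normal and 13.5% of all windows. The AP-1 word TGANTCA was found in 6 (2.47%, 1.14 to 5.28), against 4.81%, 4.60% and 7.04%, and CCAAT in 57 (23.5%, 18.6 to 29.2), against 39.7%, 38.0% and 38.5%. NRF1 was found in 10 (4.12%, 2.25 to 7.41), against 2.17%, 2.21% and 1.34%. CRE was found in 3 (1.23%) and YY1 in 5 (2.06%), against 2.26% and 0.893% of all windows. The windows compared differ in base composition, no count matched for composition was made, and a match is a description of letters, not a site. No word contains another, but neighbouring words may share bases.

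Just inside the 1 kb limit were the summits at Cobll1 (997 bp from its end), Mier3 (988 bp) and D5Ertd579e (980 bp), with scores of 5.19, 2.97 and 5.50. Just outside it were those at Rrbp1 (1011 bp), Zbtb44 (1015 bp) and Spats2l (1017 bp), with scores of 4.55, 5.19 and 4.91. Nearest to a normal 1 summit within the set were those at Anxa3 (275 bp), Slc30a4 (280 bp) and Tmprss2 (313 bp). The left-out summits nearest to the 200 bp limit were those at Speer4e (124 bp), 4931408C20Rik (78 bp) and Tssk4 (54 bp). Only 7 of the 679 had a normal 1 summit within 1 kb.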

How the data were processed

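Summits of 6 libraries were analysed, 2 YAP tumor, 2 YAP normal, 1 H3K27ac tumor and 1 H3K27ac normal. The submitters' processing notes list MACS2, Bowtie2 and the build GRCm38 (mm10), with no versions, thresholds or control library given in the sources used here. Each summit has a deposited score on the −log10 scale, of p or q, which the authors' caller gave per library. Lists were called per sample, since each has its own summits and peak names. Per the labels, libraries were read as 50 bp pairs. Sequencing depth is unknown.

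Summits on chromosomes 1 to 19 and X were kept, and ties in score were ordered by position. Gene ends came from a RefSeq table of GRCm38.p6 with 21631 protein-coding genes on those chromosomes, and strands, starts and sequences from a RefSeq promoter table that covers 17274 of them by gene ID. A summit was assigned to the nearest gene end. YAP summits were matched within 200 bp and H3K27ac summits within 1 kb, each to the nearest. The matching and the intervals were tested on simulated data. Python 3.11.15, numpy 2.4.6, pandas 2.3.3, scipy 1.17.1 and matplotlib 3.10.9 were used.

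The summits, the 9 gene lists and the 14 symbol families were chosen with earlier results of these data known. Genes were named by a rule (the 10 best in normal 2, best and worst in the tumor YAP lists and best without a tumor YAP match, up to 5 with H3K27ac in 1 tissue, genes with 2 summits, up to 4 per list). Alternatives varied the distances, the score minimum, the list lengths and the libraries used. No test was made.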

Additional observations from a re-analysis of the deposited data

How the results depend on the processing

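Of 77 alternative values, 46 stayed within the interval of the value reported (within 1.5 times for counts) and 31 did not. The share matched in both tumor YAP lists was 65.3% with gene ends within 500 bp (72.2% in tumor 1, 72.6% in tumor 2, and 97.9% nearest to the 5′ end), 38.3% with matches within 100 bp (47.7% and 49.0%) and 87.2% within 500 bp (90.7% and 90.6%). With the tumor YAP lists shortened to the length of normal 2 it was 25.9% (30.5% in tumor 1, 33.0% in tumor 2). Leaving out either tumor YAP library gave 67.3% to 67.9%, which are by construction the shares of the remaining list alone. With only normal 2 scores at or above the list's median, 271 summits at 271 genes remained, with 79.0% in both lists (83.4% and 83.8%), median ranks of 3.23% in tumor 1 and 1.99% in tumor 2, and 32.2% in normal 2. The median tumor 1 rank was 4.41% with matches within 100 bp, and the median tumor 2 rank 2.91% within 100 bp and 5.44% within 500 bp. H3K27ac was matched in 66.7% in tumor and 64.9% in normal within 200 bp, and in 94.1% and 92.3% within 500 bp. With the tumor H3K27ac list as long as the normal one the tumor share was 97.6%. The cause of the changes with the score minimum and with gene ends within 500 bp was not tested, while narrower or wider match limits and shorter lists change the number of matches by construction. Over 1 kb from normal 1, with no exclusion near normal 1, or with gene ends within 2 kb, each of the 11 results stayed within its interval or 1.5 times. Depth is unknown, and it limits how many weak summits each list holds. No paired analysis was possible because the results come from no test.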

Other observations

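The X chromosome held 1 of the 679 summits (0.147%, 0.026 to 0.829), at Spin2d, a gene of a repeated family. It holds 4.47% of the protein-coding genes, 2.61% and 2.67% of the gene-end summits of YAP tumor 1 and tumor 2, and 2.85% and 2.48% of those of H3K27ac tumor and normal. Of the distal normal 2 summits 7.13% (5.69 to 8.90) were on it. Chromosome 1 held 9.57% of the set, against 5.90% and 5.89% of gene-end summits in YAP tumor 1 and 2. Chromosome 7 held 4.12%, against 7.32% and 7.74%. Why the chromosomes differ was not tested.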
